A study of Emiliania huxleyi with 18 samples.

Results

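The step from day 7 to day 10 was followed in control cultures of the coccolithophore Emiliania huxleyi, grown under growth light alone. The comparison used 6 of the 18 bulk libraries of the series, chosen by their labels: 3 control libraries from day 10 and 3 from day 7. All of them came from the axenic strain CCMP3266, kept as standing cultures at 18 °C in artificial sea water with L1 nutrients and no added silicate, under 16 h of light and 8 h of dark. For comparison, UV cultures on days 10 and 7 and control cultures on day 13 were used, again with 3 libraries each. The UV cultures were kept in the same way and also received weak UV from a lamp during the light period. The strain is a single isolate, and the labels say neither whether replicates were separate flasks nor whether a flask was sampled on several days, so p-values measure only the spread between these libraries.

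Emiliania huxleyi is a single-celled marine alga that covers its cells with calcite scales called coccoliths and forms large ocean blooms. In a closed culture the cells divide while light and nutrients last, and division slows as the medium is used up and the culture thickens. Transcripts of growth and of photosynthesis are known to shift in algae as cultures age, and a comparison of harvest days under growth light alone sets the scale of that shift without UV. The labels give no cell density or growth phase, so the days stand only for time since inoculation. Libraries were made by MARS-seq2.0, in which a molecule carries its own barcode (UMI) through amplification and is counted once. In bulk RNA, fewer cells with a transcript and less of the transcript per cell cannot be told apart. Genes carry only the authors' identifiers, which the sources used here do not pair with names or functions. Markers of the species or of its life stages could therefore not be looked up, and genes are described below by their level and their change.

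The day 10 libraries differed from the day 7 libraries in depth. Control day 10 held 1124600, 1554537 and 7455081 UMIs in replicates 1, 2 and 3, and control day 7 held 6025337, 5606912 and 8546930 UMIs. Replicates 1 and 2 of day 10 also had 0.870 and 0.876 UMIs per read, against 0.707 in day 10 replicate 3 and 0.700 to 0.735 in the day 7 libraries. Both UV replicates numbered 1 and 2 on day 10 shared that trait, with 0.876 and 0.874 UMIs per read. No label names a batch, so day 10 replicates 1 and 2 are called the shallow libraries and replicate 3 the deep one, and the main count of calls is also given within them.

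Most of the drop in detected genes disappeared at equal depth. Between 19389 and 23611 genes had at least 1 UMI in the control day 10 libraries, against 23219 to 24041 in the control day 7 libraries. The deep day 10 library, with 23611, lay within the day 7 range. After every library was thinned at random to 1060640 UMIs, the lowest total of the series, 19133 to 19453 genes were detected on day 10. On day 7 there were then 19326 to 19424, within the day 10 range. At full depth 6 genes had a UMI in every day 10 library and none in any day 7 library, while 294 genes showed the reverse. At equal depth these numbers were 80 and 102. The 294 genes held a median of 5 UMIs over the 3 day 7 libraries, at most 26, and 0 of them passed the filter on low counts, so no test was made of them. Of the 80 genes at equal depth, 37 were tested at full depth and 13 of these were called higher on day 10. Of the 102 genes, 23 were tested and 16 of these were called lower. Over all genes tested, 15.2% were higher and 20.4% lower. These genes were picked for their difference in the same libraries, so their calls are no further test.

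Transcript levels changed in a large share of genes between the days. On day 10, 6474 of 18196 genes tested passed an adjusted p of 0.05, which is 35.6%, by the quasi-likelihood test of edgeR. Of these 2758 were higher (15.2%) and 3716 lower (20.4%). Without adjustment 8172 genes had p under 0.05. The median size of the called changes was small, 0.62 on the log2 scale for genes that rose and -0.82 for genes that fell. At least 2-fold changes were seen in 506 genes that rose (2.78% of the genes tested) and 1387 that fell (7.62%). At least 4-fold changes were seen in 68 that rose and 197 that fell, and at least 8-fold changes in 6 and 14. Falls outnumbered rises in each of these fold bands with the scaling used here, but not at 2-fold with libraries scaled by their totals.

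**Figure D1:**
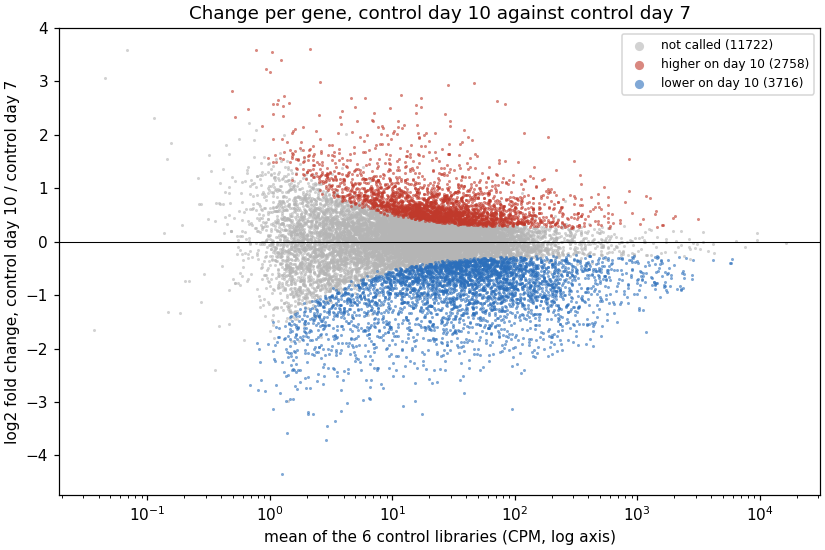
Log2 fold change of control day 10 over control day 7 (vertical axis) against the mean of the 6 control libraries in CPM (UMI counts relative to the scaled library total, log axis), 1 point per gene tested; red and blue points are the 2758 genes called higher and the 3716 called lower, and grey points the 11722 not called. Genes are called at smaller changes as the level increases.

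The called genes mostly separated the libraries of both days completely. Every day 10 library stood above every day 7 library for 2453 of the 2758 genes that rose, and below for 3507 of the 3716 that fell. Over all genes tested, 20.8% stood above in this way and 25.3% below, 46.1% in all. As the deep and the shallow libraries both belong to day 10, such a gene differed from day 7 in each of them. The genes were called from these same libraries, so their separation is no further test.

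The split into higher and lower genes depended on how libraries were scaled to each other. The values above use the trimmed mean of M-values (TMM), which placed the median gene at a log2 fold change of -2.53e-05. The TMM factors were 0.976 to 1.01 in control day 10 and 0.820 to 0.882 in control day 7. With libraries scaled by their totals alone, the median of all genes moved to 0.22 and the calls became 5526 higher and 2487 lower, so that 69.0% of the calls were higher, against 42.6% with TMM. Changes are therefore reported relative to the median gene. With both scalings 2758 genes were called higher and 2487 lower, and 0 genes were called in opposite directions. As the change of scaling moves all genes by a similar amount, this overlap is no separate check. The 1229 other genes called lower with TMM were not called with total-count scaling. Changes of at least 2-fold were 1033 higher and 896 lower with total-count scaling, so the excess of falls at 2-fold or more was not seen there. Larger fold bands were not counted with that scaling.

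Calls were made with the shallow and with the deep libraries alone, but the genes called in each were not compared. With only the shallow day 10 libraries, 5451 of 18279 genes tested passed by the same edgeR test, with 2227 higher (12.2%) and 3224 lower (17.6%). With only the deep day 10 library, 4662 passed, 1654 higher and 3008 lower, in a fit where the lone library is assumed to vary like the other groups. When the model held the shallow libraries as a term, 5596 of 18196 genes passed, 2222 higher (12.2%) and 3374 lower (18.5%). The shallow and the deep libraries of day 10 were also compared directly over both arms, and 214 genes differed (1.18% of the genes tested), of which 127 were higher (0.698%) and 87 lower (0.478%) in the shallow ones. Thinning every library to equal depth left 3878 calls among 14562 genes tested, 1569 higher and 2309 lower.

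**Figure D2:**
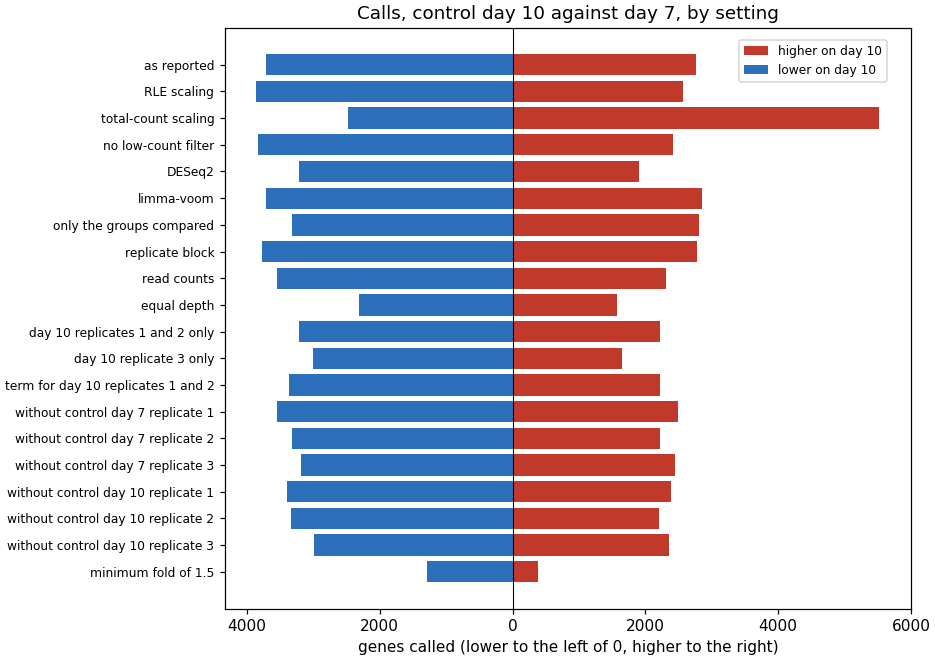
Genes called for control day 10 against control day 7 (horizontal axis, lower to the left of 0 and higher to the right) under each processing setting (rows), as reported in the top row. Lower genes outnumber higher ones in every row except total-count scaling, where 5526 are higher and 2487 lower.

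Day 10 replicates spread more widely than day 7 replicates at full depth, and at equal depth this held mainly for abundant genes. The median spread between replicates of a gene, as the SD of its log2 CPM, was 0.25 on day 10 and 0.16 on day 7 over all genes tested. At equal depth the median spread was 0.27 on both days. Among genes with a mean under 5 CPM over the 18 libraries, the median SD was 0.55 on day 10 and 0.32 on day 7 at full depth, and 0.41 and 0.42 at equal depth. At 100 CPM or more it was 0.14 on day 10 and 0.10 on day 7 at full depth, and 0.15 and 0.13 at equal depth. Correlations of log2 CPM between replicates, which are across genes and not across independent samples, were 0.944 to 0.967 on day 10 and 0.983 to 0.985 on day 7.

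The direction of change varied with the level of a gene. Among the 1746 genes with a mean of 100 CPM or more over the 18 libraries, 299 rose (17.1%) and 748 fell (42.8%), with a median log2 fold change of -0.19. Among the 7177 genes at 20 to 100 CPM, 1408 rose (19.6%) and 1666 fell (23.2%), with a median of 0.02. The 5955 genes at 5 to 20 CPM held 877 that rose (14.7%) and 856 that fell (14.4%), with a median of 0.06. The 3318 genes under 5 CPM held 174 that rose (5.24%) and 446 that fell (13.4%), with a median of -0.10. With TMM, falls thus outnumbered rises at the top and at the bottom of the range, and both were about equal at 5 to 20 CPM. With total-count scaling the genes at 100 CPM or more were evenly split, 555 higher (31.8%) and 554 lower (31.7%). Over all genes tested, 30.4% were higher and 13.7% lower with that scaling. Higher calls then outnumbered lower ones in each of the other classes, by 352 to 333 under 5 CPM.

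**Figure D3:**
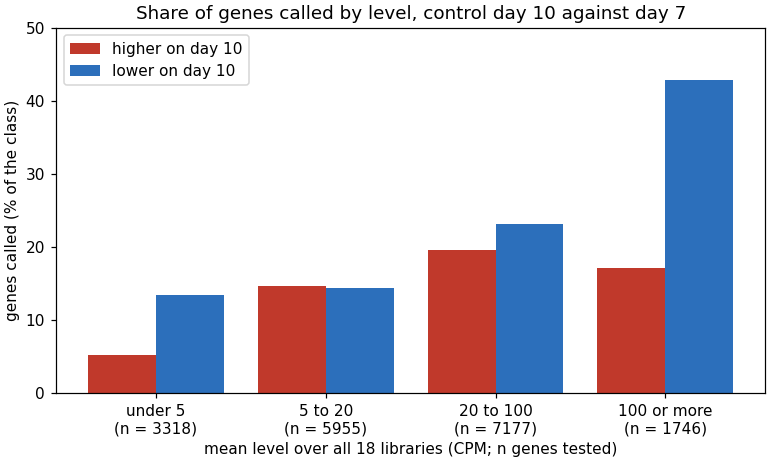
Share of genes called higher (red) and lower (blue) on control day 10 against control day 7, in percent of the genes tested in each class of mean level over the 18 libraries. Lower calls reach 42.8% of the genes at 100 CPM or more, against 17.1% higher, while the class at 5 to 20 CPM shows 14.4% and 14.7%. These shares use TMM. With total-count scaling 555 genes at 100 CPM or more were higher (31.8%) and 554 lower (31.7%), against 30.4% and 13.7% over all genes tested.

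The smallest change that could be called depended on the level too. The median standard error of the log2 fold change was 0.43 under 5 CPM and 0.12 at 100 CPM or more. Among called genes, 9 in 10 changed by more than 0.98 on the log2 scale under 5 CPM, and by more than 0.34 at 100 CPM or more. A smaller share of calls among rare transcripts therefore says little about how many of them changed.

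The 100 most abundant transcripts of the 6 control libraries, ranked by UMIs without regard to gene length, mostly fell. On day 10, 58 of them were lower, 8 were higher and 34 did not pass the threshold, with a median log2 fold change of -0.34. Over all genes tested, 20.4% were lower and 15.2% higher. With total-count scaling 37 were lower and 17 higher, with a median of -0.11, against 13.7% lower and 30.4% higher over all genes. Within the shallow libraries 55 were lower and 9 higher, against 17.6% and 12.2% over all genes. Within the deep library 39 were lower and 1 higher, against 15.8% and 8.69% over all genes. The lists of the 100 most abundant genes on day 10 and on day 7 shared 82 genes. The top 100 genes of each library took a similar share of its UMIs on both days, 22.9% to 23.2% in control day 10 and 22.7% to 24.1% in control day 7.

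The called genes made up a large part of the transcript pool. The 2758 genes that rose held 18.2%, 18.0% and 16.2% of the UMIs in control day 10 replicates 1, 2 and 3, against 10.2%, 9.51% and 9.91% in control day 7. The 3716 genes that fell held 31.4%, 32.5% and 34.5% in control day 10, against 47.0%, 48.3% and 46.9% in control day 7. These shares describe genes chosen for their change in the same libraries and are no further test. In both lists the deep day 10 library lay closest to day 7. Its median log2 difference from the day 7 mean was 0.56 for the genes that rose and -0.76 for those that fell, against 0.68 to 0.69 and -0.93 to -0.85 in the shallow libraries.

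The same lists could be followed in UV cultures, whose libraries did not enter the contrast that chose them. Those libraries did enter the filter, the scaling and the estimate of spread of the same fit. The genes that rose in control cultures held 17.7%, 17.4% and 16.9% of the UMIs in UV day 10 replicates 1, 2 and 3, against 10.4%, 9.86% and 10.2% in UV day 7. The genes that fell held 30.8%, 31.9% and 31.6% in UV day 10, against 44.6%, 46.3% and 45.7% in UV day 7. The day 10 and day 7 values did not overlap for either list. The median gene of the rising list was 0.59 to 0.64 higher in the UV day 10 libraries than in the UV day 7 mean on the log2 scale. For the falling list this difference was -0.77 to -0.73, and over all genes tested it was 0.01 to 0.06. In each UV day 10 library 93.1% to 96.9% of the rising list stood above the UV day 7 mean, and 94.9% to 96.3% of the falling list stood below it. Of all genes tested, 50.4% to 54.1% stood above it.

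**Figure D4:**
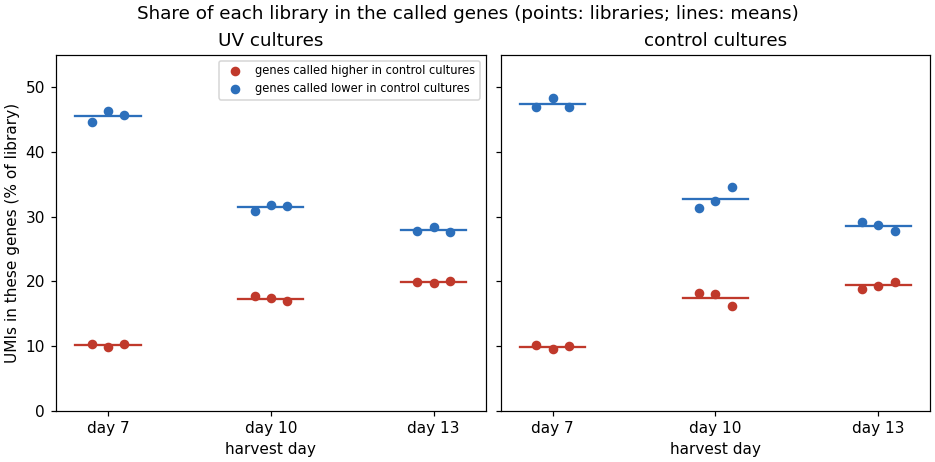
Share of each library's UMIs in the genes called higher (red) and lower (blue) on control day 10 against control day 7 (vertical axis, percent), by harvest day, in UV cultures (left) and control cultures (right); points are libraries and lines are means. In both arms the red share increases and the blue share decreases with day, to 19.8% to 20.0% and 27.6% to 28.5% in UV day 13, and 18.9% to 19.9% and 27.7% to 29.2% in control day 13.

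Gene by gene, most control calls were also made in UV cultures. In UV cultures 6903 genes passed for day 10 against day 7 by the same edgeR test (37.9%), with 3303 higher (18.2%) and 3600 lower (19.8%). With total-count scaling 4444 were higher and 2989 lower, so the balance turned over as it did in control cultures. With TMM, 5824 genes passed with only the shallow UV day 10 libraries and 5197 with only the deep one. In both arms 4945 genes were called, 4943 of them in the same direction, 2006 higher and 2937 lower with TMM. All genes called in both arms make up 76.4% of the control calls and 71.6% of the UV calls. The arms share no library, but both hold the shallow day 10 libraries, and the part of that trait in the overlap was not tested. The 2 genes called in opposite directions, named after their values were seen, were G8221 and G8598. For G8221 the log2 fold change was 0.45 in UV and -0.40 in control cultures, and for G8598 it was 0.93 and -1.26, and the difference between the arms did not pass for either (edgeR adjusted p 0.109 and 0.483). Of the 100 most abundant control transcripts, 42 were lower and 14 higher in UV cultures, against 19.8% and 18.2% over all genes tested. With total-count scaling 35 were lower and 20 higher, against 16.4% and 24.4% over all genes tested.

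The difference between the arms was itself tested, as the UV step minus the control step. By the edgeR test 2 of 18196 genes passed (0.011%), both with a higher UV step, and 0 (0%) had a lower one. Without adjustment 990 genes had an edgeR p under 0.05, 370 of them lower in the UV step. That count is not far above what a threshold of 0.05 lets pass when no gene differs. DESeq2 called 14 genes, all higher, among 3364 that it gave an adjusted p, and limma-voom called 2. Without a low-count filter edgeR called 45 among 31094 genes, 37 higher and 8 lower in the UV step. So few calls do not show that the arms took equal steps.

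The genes called for that difference were G30571 and G5644. G30571 stood at 43.2, 44.9 and 38.1 CPM in control day 10 and 137, 96.4 and 108 CPM in control day 7, with a log2 fold change of -1.47 (SE 0.15, edgeR adjusted p 5.02e-10). In UV cultures it stood at 70.3, 61.3 and 64.9 CPM on day 10, against 79.1, 51.6 and 74.3 CPM on day 7, with a log2 fold change of -0.02 and an edgeR adjusted p of 0.920. All control day 10 libraries lay below all control day 7 libraries, while the UV groups overlapped. The UV step was 1.45 higher on the log2 scale (SE 0.21, edgeR adjusted p 0.000455). Of 24 alternatives, the call was lost with only the deep day 10 libraries, where the difference was 1.54 (edgeR adjusted p 0.112, range over all 3.07e-10 to 0.112). G30571 and 1 other gene carry the same second identifier, and reads may be divided between them.

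G5644 was 163, 118 and 144 CPM in control day 10 and 150, 160 and 159 CPM in control day 7, and it did not pass there (log2 fold change -0.15, edgeR adjusted p 0.391). In UV cultures it was 187, 223 and 213 CPM on day 10, against 98.1, 120 and 123 CPM on day 7, with a log2 fold change of 0.84 and an edgeR adjusted p of 2.70e-06. The steps differed by 0.99 (SE 0.18, edgeR adjusted p 0.0426). The difference was 0.87 to 1.08 over 24 alternatives, and the call was lost in 14 of them, with an adjusted p (edgeR, limma or DESeq2) of 3.05e-05 to 0.374. Total-count scaling, read counts, either depth class of day 10 alone, and the loss of any 1 of 10 libraries ended the call, the exceptions being UV day 10 replicate 1 and control day 10 replicate 1.

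The largest rise among genes with more than 3 UMIs on day 7 was that of G19519, a rare transcript. It had 4.41, 3.96 and 3.66 CPM in control day 10 replicates 1, 2 and 3, from 5, 6 and 27 UMIs, against 0.197, 0.218 and 0.399 CPM in control day 7, from 1, 1 and 3 UMIs. The groups did not overlap, and the shallow and the deep day 10 libraries were close to each other. The log2 fold change reached 3.61 (SE 0.53, edgeR adjusted p 9.68e-07). Over pooled UMIs it was 13.0-fold higher on day 10, with an exact 95% binomial interval of 5.12 to 42.4 that covers counting error only. Without control day 7 replicate 3 the pooled ratio was 18.3-fold (95% exact interval 4.73 to 157). In UV cultures G19519 had 2.34, 3.00 and 3.11 CPM on day 10, from 4, 5 and 17 UMIs. On UV day 7 it had 1.00, 0.193 and 0.582 CPM, from 1, 1 and 5 UMIs. The log2 fold change in UV cultures was 2.56 with an edgeR adjusted p of 0.000245. UV day 7 replicate 1 had the fewest UMIs of the series, 1060640, and 3 UMIs there equal 3.00 CPM. On control day 13 G19519 stood at 1.05, 1.53 and 2.02 CPM, between its control day 7 and day 10 levels. It passed in all 17 alternatives that could test it, with an adjusted p (edgeR, limma or DESeq2) of 1.66e-08 to 0.000175.

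The largest fall by the same rule was that of G24515. It had 0, 0 and 4 UMIs in control day 10 replicates 1, 2 and 3, against 27, 28 and 39 UMIs in control day 7. In CPM this was 0.542 in day 10 replicate 3, against 5.32, 6.10 and 5.18 in day 7. A count of 0 allows up to 2.65 CPM in day 10 replicate 1 and 1.98 CPM in replicate 2, both below the day 7 libraries. The log2 fold change was -3.72 (SE 0.52, edgeR adjusted p 3.91e-07), and pooled UMIs gave a 13.7-fold lower level on day 10 (95% exact interval 5.18 to 51.4). Within the deep library alone it was 10.1-fold lower (95% exact interval 3.81 to 37.8). Without that library, a floor of 3 UMIs over the group gives a level at least 4.83-fold lower. In UV cultures G24515 had 0.586, 1.20 and 0.366 CPM on day 10, from 1, 2 and 2 UMIs. On UV day 7 it had 3.00, 2.70 and 3.72 CPM, from 3, 14 and 32 UMIs. Its log2 fold change in UV cultures was -2.46 with an edgeR adjusted p of 0.000505. On control day 13 each library held 1 UMI. It passed in all 17 alternatives that could test it, with an adjusted p (edgeR, limma or DESeq2) of 1.31e-09 to 0.000159.

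The most abundant genes that passed without overlap changed by much less. G25298 rose to 3151, 3810 and 3868 CPM in control day 10, against 2710, 2811 and 2587 CPM in control day 7. Its log2 fold change was 0.42 (SE 0.12, edgeR adjusted p 0.00728), and it passed in all 18 alternatives run, with an adjusted p (edgeR, limma or DESeq2) of 1.21e-05 to 0.0360. In UV cultures it was 2995, 3112 and 3799 CPM on day 10, against 2295, 1842 and 2138 CPM on day 7, again without overlap. Control day 13 held 3582, 3876 and 3071 CPM, which overlapped the day 10 values.

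G11438 was the most abundant gene that fell, at 5210, 4923 and 5543 CPM in control day 10, against 6918, 6751 and 6085 CPM in control day 7. Its log2 fold change was -0.33 (SE 0.11, edgeR adjusted p 0.0128). The call was lost with total-count scaling (log2 fold change -0.11, edgeR adjusted p 0.351), with only the deep library (-0.26, 0.264), with a term for the shallow libraries (-0.25, 0.125), without control day 7 replicate 1 (-0.29, 0.0596) and without control day 10 replicate 2 (-0.29, 0.0700). In UV cultures it was 5155, 4923 and 5456 CPM on day 10, against 5693, 5392 and 5457 CPM on day 7, with an edgeR adjusted p of 0.535. The difference between the arms did not pass either (edgeR adjusted p 0.922).

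**Figure D5:**
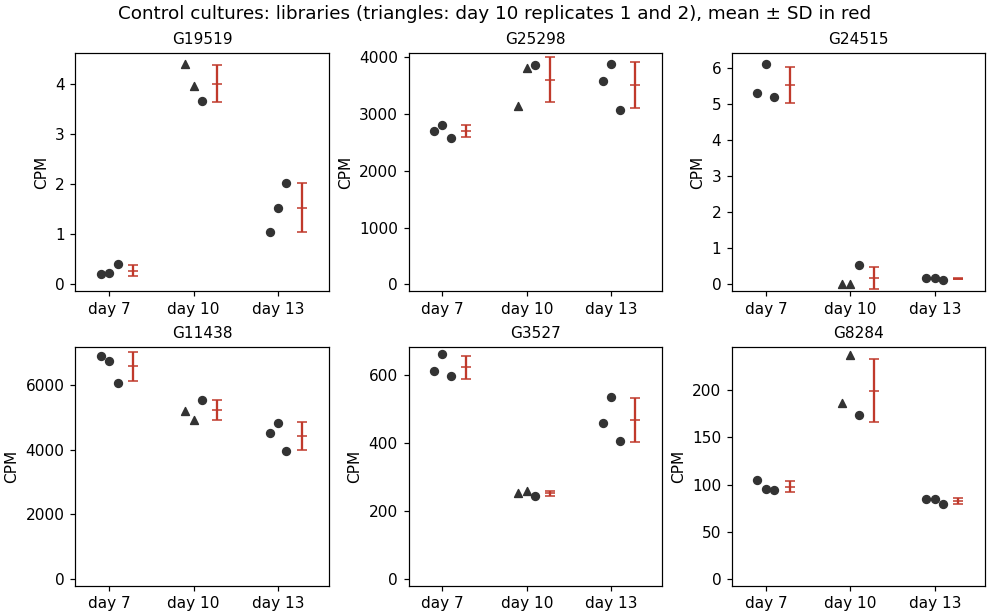
Level in CPM (vertical axis, from 0) of 6 genes in each control library by harvest day; triangles are the shallow day 10 libraries, circles all others, and red bars the mean and SD of the 3 libraries. G24515 and G19519 differ most between days 10 and 7, while G3527 is lowest and G8284 highest on day 10.

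Day 13 control cultures showed how the first step related to the next. For day 13 against day 10, 4737 genes passed by the edgeR test (26%), with 2198 higher (12.1%) and 2539 lower (14%). The steps share the day 10 libraries, so their calls are not set against each other gene by gene. The difference between the steps was tested instead, as the second step minus the first, and 2194 genes passed (12.1%), 1039 with a higher (5.71%) and 1155 with a lower (6.35%) second step. Genes chosen by this test tend to stand out on day 10, because its libraries enter both steps. The patterns of the chosen genes are therefore no further test, and the patterns of all genes tested were not counted. By their fitted means, 837 of the 2194 genes had their lowest level on day 10 and 747 their highest. The other genes moved 1 way over both steps. These counts depend on day 10: 875 genes passed with only the deep day 10 libraries, 1405 with a term for the shallow ones, 1288 without control day 10 replicate 2 and 1755 with only the shallow libraries.

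The smallest p in each direction belonged to abundant genes. G3527 was 622 ± 33.6 CPM on day 7, 251 ± 6.78 CPM on day 10 and 466 ± 64.4 CPM on day 13 in control cultures (SD, n = 3 each). The day 10 libraries held 253, 257 and 244 CPM, below every library of the other days. The second step exceeded the first by 2.21 on the log2 scale (SE 0.19, edgeR adjusted p 6.94e-10). G8284 was 97.6 ± 5.88 CPM on day 7, 200 ± 33.7 CPM on day 10 and 82.7 ± 3.02 CPM on day 13 in control cultures (SD, n = 3 each). The day 10 libraries held 187, 238 and 174 CPM, above all others, and the second step was lower than the first, by a difference of -2.28 (SE 0.20, edgeR adjusted p 6.94e-10). G8284 and 1 other gene carry the same second identifier, which makes its level uncertain. Both passed in all 21 alternatives run. In UV cultures G3527 was 252 ± 19.8 CPM on day 10 and 737 ± 22.7 CPM on day 7, and G8284 was 195 ± 28.1 CPM on day 10 and 84.6 ± 2.03 CPM on day 7 (SD, n = 3 each).

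Genes that share a second identifier may be copies or parts of the same gene. Among 468 such groups with at least 2 genes tested, 991 genes in all, every member fell in 40 groups and every member rose in 18. In 181 groups some members passed, all in 1 direction, and in 209 none did. In 20 groups members were called in opposite directions. Counting every tested gene whose second identifier is shared, 428 of 1210 were called (35.4%), 170 higher (14%) and 258 lower (21.3%). Over all genes tested the shares were 35.6%, 15.2% and 20.4%, so the class was close to the background. Because reads could be divided between these genes, their values are uncertain.

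In the authors' deposited table, 5198 of 20313 genes had an adjusted p under 0.05 for control day 10 against day 7 (25.6%). They were 1931 that rose (9.51%) and 3267 that fell (16.1%). The authors' deposited table shared 5131 genes with the calls made here, which is 98.7% of its calls and 79.3% of those made here, and all 5131 had the same direction. Both use the same UMI counts, so this overlap is no independent check. Of its calls, 445 rose and 1342 fell by 2-fold or more in the authors' deposited table. Its median log2 fold change over all genes was -0.04.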

How the data were processed

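The authors deposited UMI counts and read counts per gene as whole numbers that were not normalized, and, per the file headers, DESeq2 results of their own comparisons (log2 scale fold changes, p-values and adjusted p-values). Libraries were made by MARS-seq2.0, per the labels' protocols. For the aligner, counting tool, genome build, annotation and the authors' model, details were not given in the sources used here. Of 41734 genes, 31094 had a UMI in the series, and 0 identifiers matched the reference gene table, so gene lists by function were not run. The UMI counts in the authors' table differed from the matrix in 0 values, and 36 columns of transformed values in it were not used.

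UMI counts of all 18 libraries were fitted in 1 model with 6 group means (edgeR 4.0.16, R 4.3.3), with TMM scaling, robust quasi-likelihood tests and filterByExpr (minimum count 10, minimum total 15). This kept 18196 genes with 99.7% to 99.8% of UMIs. F-tests are two-sided, and p-values were adjusted by the Benjamini-Hochberg method over all genes tested, with a threshold of 0.05. CPM are TMM-scaled, and log2 CPM used a prior count of 2. Depth sets the precision, since UMIs count molecules. Intervals and floors cover counting error only.

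Genes named for day 10 against day 7 had passed the threshold without overlap between the days and had more than 3 UMIs over the lower group. They were the largest fold and, apart from it, the highest mean level in each direction. For the other tests the smallest p in each direction was named, and G5644 was added for the arm difference, after its values were seen, because only 2 genes passed. At most 2 genes per direction are printed because identifiers have no names. The comparison, the gene classes and the tests were chosen with earlier results of these data known. Alternatives were other scalings, no filter, DESeq2 1.42.0, limma-voom 3.58.1, a subset fit, a replicate block, read counts, equal depth, depth classes of day 10, a minimum fold and leaving out each library. The pipeline was tested on simulated data.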

Additional observations from a re-analysis of the deposited data

Results flagged for a closer look

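A pair of genes drew attention because the step from day 7 to day 10 differed between UV and control cultures by a test of that difference. For G30571 the UV step was higher than the control step by 1.45 on the log2 scale, and for G5644 by 0.99. Their levels in every library are given above. Groups of 3 libraries are too small for a check of single outlying samples.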

How the results depend on the processing

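For control day 10 against day 7, 17 of 19 alternatives kept the count of calls within 1.5 times of 6474. The exceptions were equal depth (3878) and a minimum fold of 1.5 (1676, of which 380 were higher and 1296 lower), which tests a stricter hypothesis. Leaving out 1 library gave 5357 to 6041 calls. The median change over all genes (log2 scale) moved to 0.22 with total-count scaling, 0.03 (0.0311) with only the groups compared and 0.04 (0.0390) at equal depth, and ranged from -0.00227 to 0.0267 when 1 library was left out. The second step against the first gave 1292 calls at equal depth, 875 with only the deep and 1405 with a term for the shallow libraries, and 1288 (without control day 10 replicate 2) to 2150 when 1 library was left out. The UV step against the control step gave 1 call with total-count scaling or read counts, 45 without a low-count filter (37 higher, 8 lower), 14 with DESeq2, 7 at equal depth, 5 with only the shallow libraries and 0 with only the deep ones, and 1 to 4 when 1 library was left out: 4 without control day 10 replicate 3, and 1 in the absence of UV day 7 replicate 1 or 2, any control day 7 replicate, or day 10 replicate 2 of either arm. UV day 10 against day 7 gave 4155 calls at equal depth and 5521 to 6772 when 1 library was left out. Some of these settings hold fewer UMIs or libraries, and the causes of the changed counts were not tested. No gene named above changed direction in an alternative that tested it, except that G8221 and G8598 were not followed through the alternatives.

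Replicate numbers did not pair the control libraries: same-numbered control libraries of days 10 and 7 deviated from their group means with correlations of 0.0162, 0.00592 and 0.0107 across genes, and not every library correlated best with its own number. Across arms on day 10, same-numbered libraries had correlations of 0.0476, 0.0308 and 0.230, the last for the deep replicate 3. In either arm replicate 3 had -0.117 to -0.0857 with the shallow libraries of the other arm. Deviations within a group cancel for each gene, so negative values beside a positive one are no separate observation. A replicate block gave 6555 calls, 2776 higher and 3779 lower, for control day 10 against day 7. It gave 2391, 2 and 6855 calls for the step difference, the arm difference and the UV step. G19519 and G24515 were not among the genes tested at equal depth. Depth limits what can be said of transcripts under 5 CPM.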
